A study of Oryctolagus cuniculus with 134 samples.

Results

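The response of the mitral valve to a cholesterol-rich diet was compared with the response of the tricuspid valve in the same kind of rabbits, gene by gene. The members are the 25 libraries of 134 that came from these valves in rabbits on the cholesterol-rich diet (CHT) or on chow (Ctrl). They comprised 6 mitral Ctrl, 6 mitral CHT, 7 tricuspid Ctrl and 6 tricuspid CHT libraries, 1 per rabbit and valve, from 13 rabbits of which 12 gave both valves. The series is RNA-seq of rabbit heart valves and aorta under 4 treatments. All rabbits were male New Zealand White rabbits, 12 weeks old at the start, and the protocol ran for 16 weeks. Ctrl rabbits ate standard chow. CHT rabbits ate chow with 0.3% cholesterol and were also given vitamin D2 at 25000 U per day for each 2.5 kg of body weight over 15 days, which Ctrl rabbits were not. The effects of cholesterol and of vitamin D2 therefore cannot be told apart, and "response" below means CHT with both agents against Ctrl.

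The mitral and tricuspid valves are thin leaflets that close the openings between atria and ventricles, on the high-pressure left side and the low-pressure right side of the heart. They are built by interstitial cells in a collagen-rich matrix under an endothelium, and they hold resident macrophages. Cells that take up cholesterol normally shut down its synthesis, because the SREBP transcription factors that drive the synthesis genes are held inactive when membranes are rich in sterol. Oxidised sterols at the same time activate the liver X receptors (LXR), which switch on genes that export cholesterol. Macrophages that take up more lipid than they export become foam cells, the lipid-filled cells of early atherosclerotic lesions.

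Libraries held 13564979 to 42151854 read pairs assigned to genes, with a median of 17498901. Fold changes, their standard errors and adjusted p-values came from edgeR's quasi-likelihood test with Benjamini-Hochberg adjustment over the 15890 genes that passed a filter on low counts, out of 29587. A gene was called in a valve when its adjusted p was under 0.05 and it changed by more than 1.5-fold. The interaction, which is the mitral response minus the tricuspid response, was called at an adjusted p under 0.05. Levels are given as CPM, read counts scaled to a common library size and normalised for library composition, and compare a gene with itself across libraries.

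Several libraries stood apart. In 3 of the 6 mitral Ctrl libraries (L156, L199 and L262, all labelled plate 1) the summed level of 14 endothelial genes was 195.1 to 305 CPM, against 1539 to 1672 CPM in the other 3 and 683 to 1155 CPM in mitral CHT. The summed level of 13 leukocyte genes was 160.8 to 178.4 CPM in the first 3 and 254.1 to 300.4 CPM in the other 3. The summed level of 15 heart sarcomere genes ran from 1131 CPM (Ctrl L168) to 50470 CPM (Ctrl L243) in the tricuspid valve, and from 564.6 to 5860 CPM in the mitral valve. All 6 mitral CHT libraries were on plate 1, while the other groups were split between plates. The main counts are therefore given again without these mitral Ctrl libraries, without the tricuspid libraries farthest apart in heart muscle genes (Ctrl L168, Ctrl L243 and CHT L268), and on plate 1 alone. Of the 4 mitral Ctrl libraries on plate 1, 3 are those low in endothelial genes. Without these 3, mitral Ctrl holds L183 on plate 1 and L241 and L278 on plate 2. Plate 1 alone and leaving out these 3 are therefore not separate checks. Counts with plate or with the heart muscle level as a covariate are given below as well. The part of the differences between libraries in the results was otherwise not tested.

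In the mitral valve 755 genes rose and 86 fell, which is 4.75% and 0.541% of the genes tested. In the tricuspid valve 20 rose and 18 fell, or 0.126% and 0.113%. The interaction was called for 354 genes. For 340 of them the mitral response was the higher (2.14% of the genes tested), and for 14 it was the lower (0.0881%). With the rabbit as a block these counts were 385 and 92, and on plate 1 alone 65 of 330 interactions had the lower mitral response, so this share was larger there. The count of 14 rested on single libraries. It was 1 without mitral CHT L157 or L266, 4 without mitral Ctrl L199, tricuspid Ctrl L243 or tricuspid CHT L160, 5 without mitral Ctrl L156, 6 without mitral CHT L229, 7 without tricuspid CHT L231, 8 without mitral Ctrl L183 or tricuspid CHT L247, 9 without mitral Ctrl L262 or tricuspid Ctrl L280, 27 without tricuspid Ctrl L201 and 52 without mitral CHT L245. The median standard error of the log2 fold change was 0.282 in the mitral and 0.273 in the tricuspid valve. The model shared 1 estimate of the spread over its 8 groups, so these values do not compare the noise of the valves. More genes lay beyond 1.5-fold without regard to the test in the tricuspid valve (3320) than in the mitral valve (2991).

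Of the 354 genes with an interaction, 323 were called in the mitral valve alone and had the larger response there, with 322 of them rising. This class is taken below as a response on the left only. Another 2 were called in the tricuspid valve alone and 1 in both. A further 3, including the thymidine kinase gene TK1, were also called in the mitral valve alone. Their rise there stood against a larger uncalled fall in the tricuspid valve. The other 25 were called in neither valve. Conversely, 493 genes were called in the mitral valve without an interaction call, so their responses were not shown to differ between the valves. Without the 3 mitral Ctrl libraries low in endothelial genes, 360 genes were called in the mitral valve and 148 had an interaction, of which 144 were among the 354. Without the 3 tricuspid libraries the interaction was called for 224 genes, 202 of them shared.

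**Figure D1:**
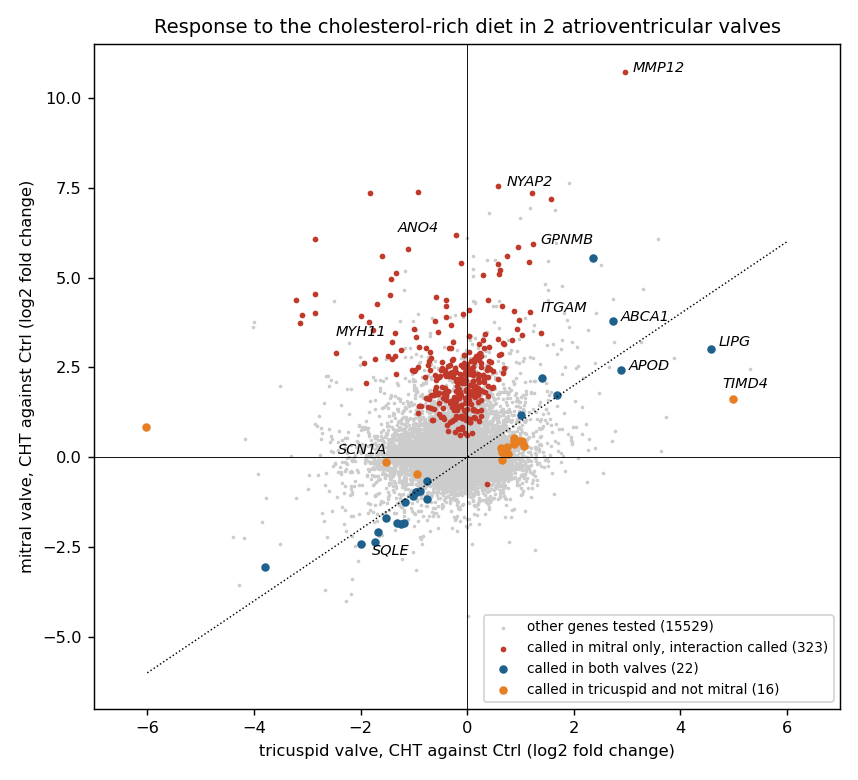
Response of each of the 15890 tested genes, with the log2 fold change of CHT against Ctrl in the tricuspid valve on the x axis and in the mitral valve on the y axis, and a dotted line where both are equal. Red marks the 323 genes called in the mitral valve alone with an interaction and the larger response there. They stand above 0 on the y axis and around 0 on the x axis except for 1 that fell. The 22 genes called in both valves (blue) moved in the same direction in both.

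The genes that responded in both valves were mostly those of sterol feedback. The 22 genes called in both valves comprised 7 that rose and 15 that fell, each in the same direction on both sides. Cholesterol synthesis provided 9 of the 15. Of the 14 synthesis genes tested, 11 fell in the mitral and 9 in the tricuspid valve, and none had an interaction (1 did in limma-voom with the rabbit as a random effect). The median log2 fold change was −1.13 in the mitral and −0.99 in the tricuspid valve (all genes tested: 0.01 and −0.02). Over these 14 genes the mitral minus the tricuspid response had a median of −0.41 and was above 0 for 2. Their summed level was 468.1 to 667.4 CPM in mitral Ctrl and 185.7 to 210.7 CPM in mitral CHT. The tricuspid sum was 312.6 to 504.8 CPM in Ctrl and 194.1 to 222 CPM in CHT. Thus the sums differed between the valves in Ctrl medians (532.6 and 396.3 CPM) and met at close levels on the diet (207 and 202.1 CPM).

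SQLE, squalene epoxidase, was at 30.7, 37.6 and 49.3 CPM (lowest, median and highest) in mitral Ctrl and at 4.65, 6.95 and 9.69 CPM in mitral CHT. Its tricuspid levels were 12.7, 21.0 and 33.5 CPM in Ctrl and 3.46, 5.85 and 6.95 CPM in CHT. The diet groups did not overlap in either valve. By edgeR its log2 fold change was −2.42 ± 0.24 (SE, adjusted p = 1.47e-10) in the mitral and −1.99 ± 0.23 (adjusted p = 1.64e-07) in the tricuspid valve. The difference of the responses was −0.42, with a 95% interval from −1.06 to 0.21.

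CYP51A1, lanosterol demethylase, went from a median of 60.2 to 17.1 CPM in the mitral valve (range 51.9 to 70.0 in Ctrl, 12.4 to 19.0 in CHT) and from 39.2 to 16.5 CPM in the tricuspid valve (30.4 to 53.1 and 14.6 to 22.4). Its log2 fold change was −1.87 in the mitral and −1.24 in the tricuspid valve, and the difference of −0.63 (95% interval −1.07 to −0.19) did not pass adjustment by edgeR over all genes (adjusted p = 0.145), but passed with the rabbit as a random effect in limma-voom (−0.64, adjusted p = 0.0435). Its diet groups were separate in both valves. MSMO1, HMGCS1, ACAT2, NSDHL and FDPS, further enzymes of the route, fell by 2.09, 1.82, 0.95, 1.09 and 0.98 on the log2 scale in the mitral valve, in that order. In the tricuspid valve they fell by 1.68, 1.19, 0.88, 1.01 and 0.97. The tricuspid call of FDPS was lost when any 1 of CHT L160, CHT L231, CHT L247, Ctrl L168 and Ctrl L264 was left out (log2 fold change −0.96 to −0.79) and on plate 1 alone (−0.90), where that of ACAT2 was lost too (−0.68). The mitral fall of FDPS was not called without the 3 mitral Ctrl libraries (−0.78).

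FDFT1, squalene synthase, was called in the mitral and not in the tricuspid valve, and its interaction was not called. Its levels were 101, 133 and 155.6 CPM in mitral Ctrl and 23.4, 46.2 and 56.2 CPM in mitral CHT. In the tricuspid valve they were 34.5, 112 and 149 CPM in Ctrl and 49.2, 58.1 and 69.8 CPM in CHT. The tricuspid groups overlapped through 1 Ctrl library, L168, and the log2 fold changes were −1.64 and −0.82 with a difference of −0.82 (95% interval −1.46 to −0.18, edgeR adjusted p = 0.215). The tricuspid fall was called with DESeq2 (−0.85, adjusted p = 0.0266) and without the 3 tricuspid libraries, L168 among them (−0.998, edgeR adjusted p = 0.0303).

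INSIG1, which retains the SREBP complex in the endoplasmic reticulum, also fell on both sides. It was at 20.9, 27.2 and 40.05 CPM in mitral Ctrl against 5.66, 8.07 and 13.9 CPM in CHT. Its tricuspid levels were 14.7, 35.4 and 50.6 CPM in Ctrl against 7.40, 9.95 and 20.1 CPM in CHT, where the groups overlapped. Its log2 fold change was −1.68 ± 0.27 in the mitral and −1.52 ± 0.26 in the tricuspid valve (edgeR adjusted p = 1.15e-05 and 0.000752). The difference of the responses had a 95% interval from −0.91 to 0.57, which reaches in either direction. Outside sterol metabolism, FZD4, a Wnt receptor, and CRY1, a repressor of the circadian clock, also fell in both, with tricuspid calls that were lost on leaving out any 1 of 7 (FZD4) or 10 (CRY1) libraries. The mitral call of FZD4 was lost as well without mitral CHT L266 or mitral Ctrl L278 (−0.58 to −0.55) and on plate 1 alone (−0.57).

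Of the 7 LXR target genes tested, 4 rose in the mitral and 3 in the tricuspid valve, and none had an interaction (0 to 2 on leaving out 1 library). Their median log2 fold change was 1.16 in the mitral and 0.84 in the tricuspid valve. The summed level was 237.6 to 320 CPM in mitral Ctrl against 989.8 to 1848 CPM in CHT, and 263.6 to 411.3 CPM in tricuspid Ctrl against 844.8 to 1188 CPM in CHT. The sums of the diet groups were apart in both valves.

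ABCA1, the transporter that moves cholesterol out of cells, was at 38.4, 55.0 and 82.4 CPM in mitral Ctrl and at 569.2, 816 and 997 CPM in mitral CHT. Tricuspid ABCA1 was at 61.7, 117 and 151.8 CPM in Ctrl and at 501, 744 and 846 CPM in CHT. Thus it reached overlapping levels on the diet, from a lower Ctrl median in the mitral valve. Its log2 fold change was 3.80 ± 0.25 in the mitral and 2.73 ± 0.23 in the tricuspid valve (edgeR adjusted p = 9.55e-16 and 5.62e-12). The difference of 1.07 (95% interval 0.44 to 1.70) missed the threshold (edgeR adjusted p = 0.0551), but with the rabbit as a block it was 1.18 and passed (edgeR adjusted p = 0.000153). The difference also passed with DESeq2 (1.11, adjusted p = 0.0219) and on plate 1 alone (1.46, edgeR adjusted p = 0.0123). Further settings that called it included the rabbit as a random effect in limma-voom (1.08, adjusted p = 0.00802) and plate as a covariate (1.14, edgeR adjusted p = 0.0392). It was not called under every setting. NR1H3, which encodes LXR alpha itself, rose by 2.21 on the log2 scale in the mitral valve (5.63 to 8.41 CPM in Ctrl, 21.5 to 50.3 CPM in CHT) and by 1.4 in the tricuspid valve (2.94 to 11.47 and 14.1 to 22.5 CPM). LPCAT3, a phospholipid remodelling enzyme, was called in the mitral valve at 1.16 and was at 0.84 in the tricuspid valve, just short of the threshold (edgeR adjusted p = 0.0552). The latter was called in 4 other settings, among them DESeq2 (0.81, adjusted p = 0.029) and the rabbit as a random effect in limma-voom (0.85, adjusted p = 0.0424).

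APOD, apolipoprotein D, was at 190.8, 224 and 296 CPM in mitral Ctrl and at 660, 1351 and 1796 CPM in mitral CHT. APOD in the tricuspid valve was at 14.3, 76.3 and 378 CPM in Ctrl and at 368, 770 and 2482 CPM in CHT. The mitral groups were apart, and the tricuspid groups overlapped slightly. Its response was 2.43 ± 0.49 and 2.88 ± 0.47 on the log2 scale, with an interval of the difference from −1.75 to 0.84. LIPG, endothelial lipase, OLR1, a receptor for oxidised LDL, and RASGEF1B, an exchange factor for small GTPases, also rose in both valves, by 3.00, 1.73 and 1.18 in the mitral and 4.57, 1.69 and 1.02 in the tricuspid valve. These 3 tricuspid calls were less firm. The call was lost without CHT L160 for LIPG (3.63), without any 1 of 6 libraries for OLR1 (0.82 to 1.74) and without any 1 of 8 for RASGEF1B (0.86 to 1.03). With the rabbit as a random effect in limma-voom, LIPG (3.39, adjusted p = 0.257) and OLR1 (1.36, adjusted p = 0.382) were not called in the tricuspid valve, and on plate 1 alone neither was OLR1 (0.87, edgeR adjusted p = 0.479) nor RASGEF1B (0.79, adjusted p = 0.0957). The mitral call of LIPG was lost without any 1 of 5 libraries (2.75 to 2.88) and on plate 1 alone (2.56, edgeR adjusted p = 0.108), and the mitral calls of all 3 without the 3 mitral Ctrl libraries (4.29, 1.53 and 0.80, in the order above).

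Among all 22 genes called in both valves, 15 kept both calls whichever of the 25 libraries was left out. The response was larger in the mitral valve for 17 of the 22, and the 95% interval of the difference held 0 for 16. The differences ran from −1.56 to 3.18. The gene with 3.18, ENSOCUG00000029958, was the only one of the 22 with an interaction call (5.53 in the mitral and 2.35 in the tricuspid valve). It has no symbol in the files.

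**Figure D2:**
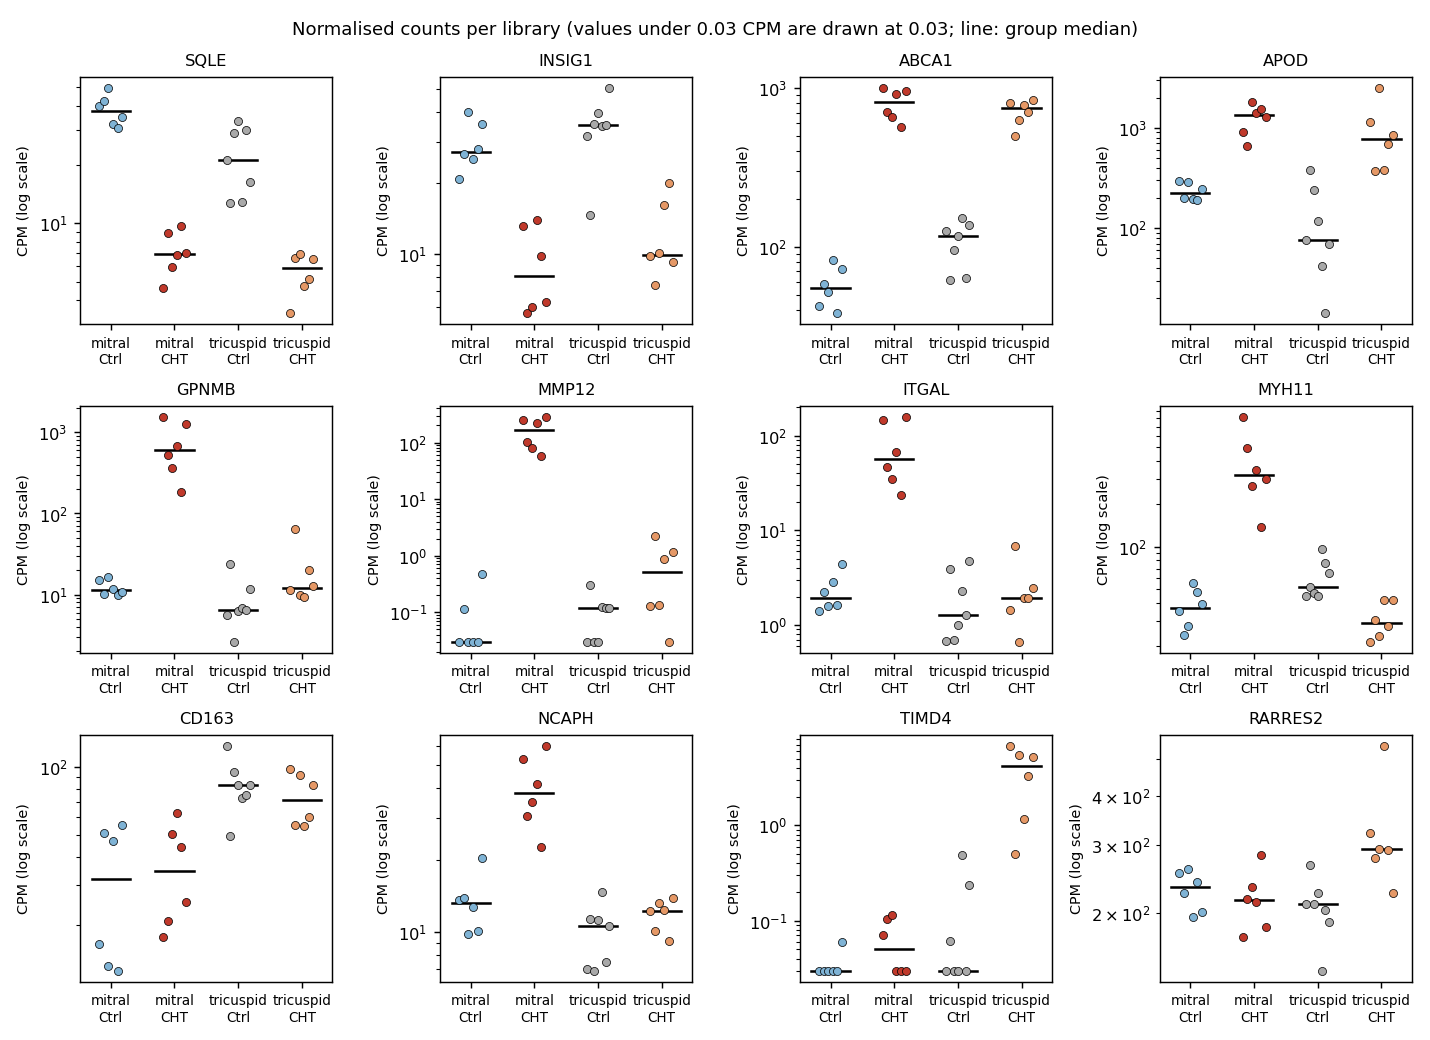
CPM of 12 genes in each of the 25 libraries on log axes, by valve and diet, with a line at the group median and values under 0.03 CPM drawn at 0.03. SQLE, INSIG1, ABCA1 and APOD were called in both valves, GPNMB, MMP12, ITGAL, MYH11 and NCAPH in the mitral valve, TIMD4 and RARRES2 in the tricuspid valve, and CD163 in neither.

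The genes that responded on the left only rose almost without exception. For the 322 of this class that rose, the log2 fold change in the mitral valve had a median of 2.17 (quartiles 1.61 and 2.80, range 0.61 to 10.73). These values and the interaction p-values took part in choosing the genes and are given as a description. In the tricuspid valve, whose value also entered the interaction, the median of the same genes was −0.11 (quartiles −0.44 and 0.14), and 123 of the 322 lay above 0. In 73.9% of them all mitral CHT libraries lay above all mitral Ctrl libraries, and in 1.24% (4 genes) all tricuspid CHT libraries lay above all tricuspid Ctrl libraries. Among all genes tested the shares with such a separation were 3.08% and 0.208%. The only fall of this class was ENSOCUG00000004283, which has no symbol.

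The smallest interaction p-values belonged to genes of varied function. ANO4, which encodes a member of the anoctamin family of channels and scramblases, was at 0.473, 0.910 and 1.03 CPM in mitral Ctrl and at 19.1, 56.4 and 112 CPM in mitral CHT. On the right side ANO4 was at 0.486, 0.877 and 1.42 CPM in Ctrl and at 0.262, 0.663 and 1.51 CPM in CHT. Only the mitral CHT libraries stood out, each at least 19.1 CPM. The difference of the responses was 6.39 on the log2 scale (95% interval 5.18 to 7.60, edgeR adjusted p = 4.34e-10). NYAP2, an adaptor of PI3-kinase signalling known from neurons, showed the same shape, at 0.153, 0.263 and 0.605 CPM in mitral Ctrl and at 17.8, 48.5 and 105 CPM in mitral CHT. NYAP2 was at most 1.21 CPM in any tricuspid library.

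Further genes at the head of this ranking were GAS2L3 (a linker of actin and microtubules), PLAU (urokinase), MYH11 (smooth muscle myosin heavy chain), PPM1H (a protein phosphatase), MPP1 (a membrane scaffold), ITGAL (the alpha chain of the integrin LFA-1), MCOLN2 (an endolysosomal cation channel), VAV1 (a signalling protein of blood cells) and KLHL6 (known from B lymphocytes). Their mitral responses lay between 1.81 (MPP1) and 5.08 (ITGAL), and their tricuspid responses between −0.97 (MYH11) and 0.65 (MCOLN2). PLAU, as an example of the more abundant ones, was at 10.3, 12.4 and 17.1 CPM in mitral Ctrl and 27.8, 56.2 and 86.1 CPM in CHT, and at 13.9, 21.9 and 33.0 CPM in tricuspid Ctrl and 13.1, 19.6 and 22.4 CPM in CHT.

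**Figure D3:**
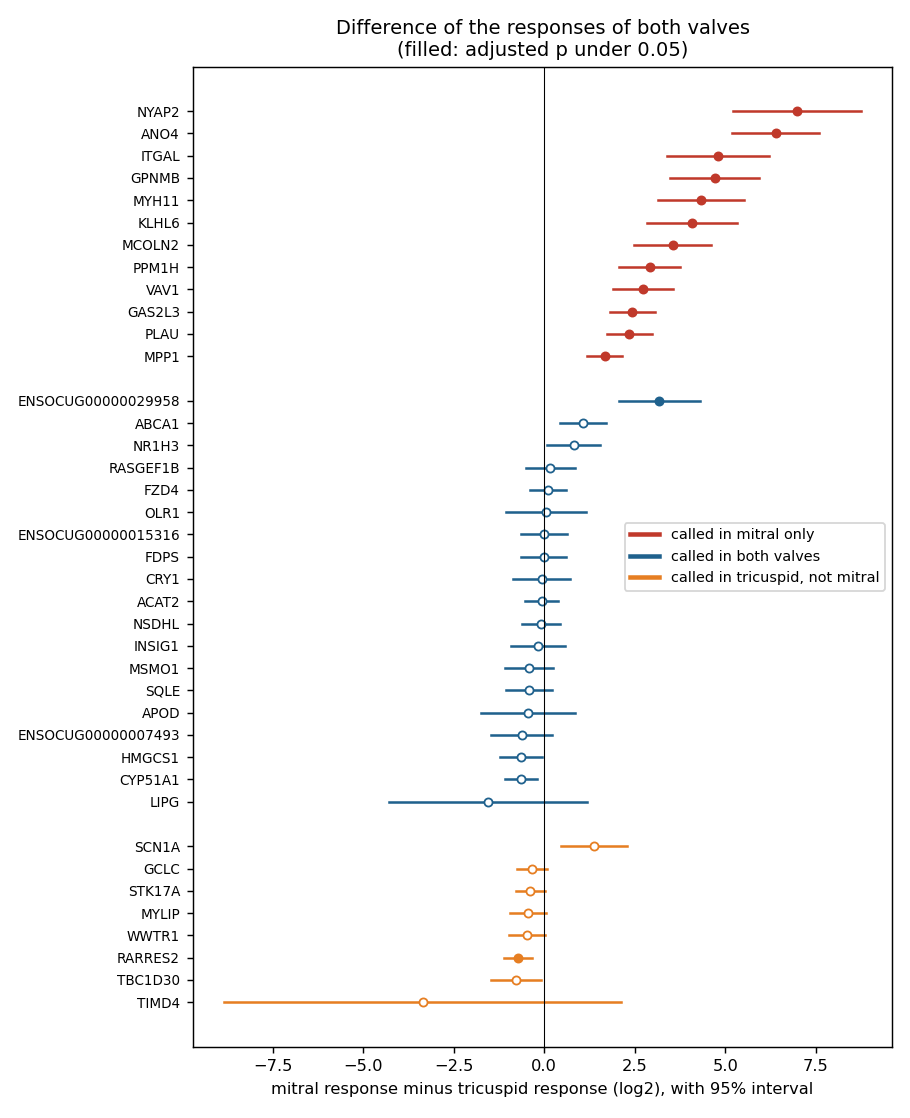
Difference of the responses (mitral minus tricuspid, log2, x axis) with its 95% interval for named genes, coloured by the valve or valves in which the gene was called, with filled points where the interaction was called. The 12 genes called in the mitral valve only were chosen for the smallest interaction p, so their distance from 0 follows from the choice. Of the genes called in both valves, 14 of the 19 intervals drawn hold 0.

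Leukocyte genes were among those that responded on the left. Of the 13 genes of the leukocyte list (beta2 integrins and proteins of the blood cell cytoskeleton), 12 rose in the mitral valve, none was called in the tricuspid valve and 10 had an interaction. The median log2 fold change was 2.51 in the mitral and 0.11 in the tricuspid valve. The summed level was 160.8, 216.2 and 300.4 CPM in mitral Ctrl and 461.6, 1016 and 1768 CPM in mitral CHT. The tricuspid sum was 132.3, 168.9 and 192.7 CPM in Ctrl and 169.1, 192.7 and 207.9 CPM in CHT. In bulk tissue, more cells of a type and more RNA per cell cannot be told apart. Without the 3 mitral Ctrl libraries low in endothelial genes, 8 of the 13 rose and 7 had an interaction, with a mitral median of 2.24. On plate 1 alone 12 rose and 6 had an interaction. Of 3 red blood cell genes tested none was called in either valve (1 in the mitral valve with DESeq2), with medians of 2.77 and 0.05. The summed level of these 3 was 1.62, 7.306 and 18.44 CPM in mitral Ctrl and 9.936, 37.05 and 60.73 CPM in mitral CHT. In the tricuspid valve it was 4.17, 8.007 and 58.64 CPM in Ctrl and 1.67, 7.039 and 62.83 CPM in CHT. The mitral groups overlapped, and the part of these genes in the leukocyte result was not tested.

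ITGAL was at 1.39, 1.94 and 4.39 CPM in mitral Ctrl and at 23.6, 56.9 and 156.6 CPM in mitral CHT. Tricuspid ITGAL was at 0.675, 1.29 and 4.79 CPM in Ctrl and at 0.668, 1.93 and 6.79 CPM in CHT. ITGAM, the alpha chain of the integrin Mac-1 of myeloid cells, was at 4.24, 6.30 and 10.5 CPM in mitral Ctrl and at 41.4, 102 and 180 CPM in CHT. For ITGAM the tricuspid groups were also separate, with 4.13, 6.33 and 9.11 CPM in Ctrl and 9.85, 14.6 and 19.2 CPM in CHT. Its tricuspid log2 fold change of 1.18 ± 0.30 did not pass adjustment (edgeR adjusted p = 0.0959; DESeq2 adjusted p = 0.0473), and the difference from the mitral 4.03 was 2.85 (95% interval 1.96 to 3.75, edgeR adjusted p = 4.48e-05). ITGB2, the common beta chain, had responses of 3.14 and 0.22, HCLS1, an actin regulator of blood cells, 2.51 and 0.11, and VAV1 2.49 and −0.24 (mitral, then tricuspid). The interaction of ITGB2 was not called on plate 1 alone (difference 2.35, edgeR adjusted p = 0.0594).

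Of the 14 macrophage markers tested, 12 rose in the mitral valve, none was called in the tricuspid valve and 6 had an interaction, with medians of 1.5 and 0.28. Their summed level was 300.7 to 767.6 CPM in mitral Ctrl, 753.2 to 1393 CPM in mitral CHT, 615.4 to 833.4 CPM in tricuspid Ctrl and 629.1 to 928.2 CPM in tricuspid CHT. The mitral Ctrl range thus reached below the tricuspid Ctrl range. When the 3 mitral Ctrl libraries were left out, 7 rose and 2 had an interaction, with a mitral median of 1.33.

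CD68, a lysosomal glycoprotein of macrophages, was at 14.1, 21.1 and 28.8 CPM in mitral Ctrl and at 52.7, 115 and 227 CPM in mitral CHT. CD68 in the tricuspid valve was at 13.6, 15.7 and 33.9 CPM in Ctrl and at 20.9, 26.1 and 30.6 CPM in CHT. The difference of its responses was 2.28 (95% interval 1.51 to 3.04, edgeR adjusted p = 0.000131). CD14, the lipopolysaccharide co-receptor, was at 3.32, 8.59 and 19.95 CPM in mitral Ctrl and at 22.3, 62.5 and 85.2 CPM in CHT, against 6.07, 9.23 and 9.94 CPM and 9.04, 11.2 and 17.2 CPM in the tricuspid valve. TYROBP and FCER1G, adaptors of activating receptors, rose by 2.72 and 2.47 in the mitral valve and were at 0.13 and 0.69 in the tricuspid valve. Without the 3 mitral Ctrl libraries the interaction of CD14 (difference 1.59, edgeR adjusted p = 0.0701) and that of FCER1G (1.27, adjusted p = 0.212) were no longer called.

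CD163, a haemoglobin scavenger receptor of resident macrophages, was called in neither valve. It was at 12.6, 31.9 and 55.6 CPM in mitral Ctrl and 17.7, 34.7 and 62.7 CPM in mitral CHT, and at 49.7, 83.1 and 124 CPM in tricuspid Ctrl and 54.7, 71.6 and 98.0 CPM in tricuspid CHT. The groups overlapped in both valves, and the log2 fold changes were 0.17 ± 0.38 and −0.17 ± 0.37.

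Of 11 foam cell genes tested, 8 rose in the mitral and 1 (OLR1) in the tricuspid valve, and 6 had an interaction, with medians of 1.73 and 0.18. GPNMB, a transmembrane glycoprotein of lipid-laden macrophages, was at 9.89, 11.3 and 16.4 CPM in mitral Ctrl and at 183.8, 607 and 1538 CPM in mitral CHT. On the right side GPNMB was at 2.63, 6.43 and 23.9 CPM in Ctrl and at 9.44, 12.1 and 63.6 CPM in CHT. The difference of its responses, 5.94 and 1.23, was 4.71 (95% interval 3.48 to 5.94, edgeR adjusted p = 1.75e-06). SPP1, osteopontin, was at 81.7, 111 and 136 CPM in mitral Ctrl and 175.9, 607 and 802 CPM in mitral CHT, and did not separate by diet in the tricuspid valve (33.2, 47.8 and 109 CPM against 24.8, 51.4 and 60.9 CPM). PLIN2, a coat protein of lipid droplets, rose by 1.30 in the mitral valve and was at 0.18 in the tricuspid valve.

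MMP12, macrophage elastase, had the largest mitral response of the 322, 10.73 ± 0.84. It was at 0, 0 and 0.481 CPM in mitral Ctrl and at 58.1, 164 and 280 CPM in mitral CHT, so the fold change rests on a near-zero Ctrl level. MMP12 on the right side was at 0, 0.117 and 0.304 CPM in Ctrl and at 0, 0.501 and 2.18 CPM in CHT. Its interaction of 7.77 (95% interval 4.17 to 11.36, edgeR adjusted p = 0.0071) was not called with the rabbit as a block (7.42, adjusted p = 0.195), nor without tricuspid Ctrl L168 (7.18, adjusted p = 0.125).

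Lysosomal genes rose in the mitral valve. Of 16 tested, 9 rose there, all 9 with an interaction, and none was called in the tricuspid valve, with medians of 1.02 and 0.05. Their summed level was 1030 to 1317 CPM in mitral Ctrl and 1742 to 4501 CPM in mitral CHT, against 914.1 to 1248 CPM and 989.7 to 1333 CPM in the tricuspid valve. Leaving out the 3 mitral Ctrl libraries, 8 rose and 5 had an interaction, and without mitral CHT L266 the interaction was called for 5 as well.

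CTSS, cathepsin S, a protease that matures MHC class II molecules, was at 4.73, 13.0 and 23.3 CPM in mitral Ctrl and at 57.3, 154.3 and 236.8 CPM in mitral CHT. Tricuspid CTSS was at 13.1, 17.1 and 29.6 CPM in Ctrl and at 18.8, 24.6 and 30.2 CPM in CHT. CTSK, cathepsin K, a collagen-degrading protease, was at 109, 144 and 175.5 CPM in mitral Ctrl and at 257.5, 450 and 588 CPM in CHT, with tricuspid levels of 107, 142 and 187.3 CPM against 108, 169.4 and 176.7 CPM. Both showed separate diet groups in the mitral valve and overlapping ones in the tricuspid valve. CTSB, cathepsin B, rose by 1.86 in the mitral valve and was at 0.24 in the tricuspid valve. ATP6V0D2, a subunit of the lysosomal proton pump known from macrophages and osteoclasts, was at 0, 0.0561 and 0.306 CPM in mitral Ctrl and at 2.82, 12.6 and 51.9 CPM in CHT, and at most 1.22 CPM in any tricuspid library.

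LIPA and NPC2, whose products handle cholesterol in the lysosome, both rose in the mitral valve. LIPA, the acid lipase that frees cholesterol from its esters, was at 20.2, 32.1 and 34.7 CPM in mitral Ctrl and at 62.9, 133 and 234.4 CPM in mitral CHT. LIPA in the tricuspid valve was at 20.3, 45.7 and 46.4 CPM in Ctrl and at 38.5, 48.2 and 58.7 CPM in CHT. The difference of its responses was 1.99 (95% interval 1.33 to 2.65, edgeR adjusted p = 9.87e-05). NPC2, which carries the freed cholesterol, rose by 1.02 in the mitral valve and was at 0.22 in the tricuspid valve. Its interaction (0.80, edgeR adjusted p = 0.0363) was lost with the rabbit as a block (0.76, adjusted p = 0.0674) and without any 1 of 8 libraries (0.68 to 0.79).

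Of 14 receptors and adaptors of innate immunity, 11 rose in the mitral and none in the tricuspid valve, and 8 had an interaction (medians 1.63 and 0.18). Named members were TLR8, a sensor of RNA (2.93 and −0.70), SYK, a kinase downstream of activating receptors (2.30 and −0.02), and PYCARD, the inflammasome adaptor (1.53 and 0.21), each with the mitral response first. The interaction count was sensitive to single libraries, at 3 without mitral Ctrl L156 or mitral CHT L266, 4 without mitral Ctrl L199, mitral CHT L157, tricuspid CHT L172 or tricuspid CHT L247, and 5 without mitral Ctrl L262, tricuspid CHT L189, tricuspid Ctrl L159 or tricuspid Ctrl L168. Without the 3 mitral Ctrl libraries 6 rose and 2 had an interaction. Of 8 complement genes 5 rose in the mitral valve, among them the anaphylatoxin receptors C5AR1 (2.35, and −0.25 in the tricuspid valve) and C3AR1 (2.43 and 0.37). The interaction of C3AR1 was not called without mitral CHT L266 (difference 1.87, edgeR adjusted p = 0.0642).

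Of 8 genes of MHC class II presentation, 5 rose in the mitral and none in the tricuspid valve, and 3 had an interaction (medians 1.47 and 0.02). HLA-DMA, which loads peptides on class II molecules, was at 3.73, 7.54 and 10.7 CPM in mitral Ctrl and at 14.8, 33.5 and 45.1 CPM in mitral CHT, and at 1.60, 2.63 and 5.71 CPM in tricuspid Ctrl and 1.97, 4.35 and 6.56 CPM in tricuspid CHT. HLA-DRA, the class II alpha chain, had responses of 1.90 and −0.01. Its interaction (1.91, edgeR adjusted p = 0.0316) was lost without any 1 of 8 libraries (1.70 to 1.91), and that of HLA-DMA without the 3 mitral Ctrl libraries, without the 3 tricuspid libraries or on plate 1 alone (1.53 to 1.63). Class II genes have close paralogs, so the counting may have divided reads among them.

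Of 14 genes of iron handling and oxidants, 5 rose in the mitral and 1 (GCLC) in the tricuspid valve. CYBB and NCF4, subunits of the phagocyte NADPH oxidase, rose in the mitral valve by 1.83 and 2.54. Their tricuspid values were 0.27 and −0.35. The interaction of CYBB was lost without mitral Ctrl L156, mitral Ctrl L199, mitral CHT L266 or tricuspid CHT L247 (1.42 to 1.52).

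Of 6 neutrophil genes tested 1 rose in the mitral valve, where 4.75% of all genes tested rose. Of 4 T cell genes none was called in either valve. The neutrophil genes had median log2 fold changes of 0.99 in the mitral and 0.07 in the tricuspid valve. Their summed level was 1.634 to 4.206 CPM in mitral Ctrl and 6.014 to 7.606 CPM in mitral CHT, which did not overlap. The tricuspid sums were 2.07 to 9.288 CPM in Ctrl and 3.186 to 8.225 CPM in CHT. The defining neutrophil genes MPO, CXCR2 and S100A8 had 30, 48 and 28 read pairs in all 25 libraries together. Of 4 B cell genes 2 rose in the mitral valve. CD22, an inhibitory receptor of B cells that other leukocytes can also express, was at 0.481, 1.11 and 1.505 CPM in mitral Ctrl and at 5.67, 14.5 and 45.3 CPM in mitral CHT, with at most 1.98 CPM in the tricuspid valve. Its interaction of 3.98 was not called on plate 1 alone (2.64, edgeR adjusted p = 0.189) or with the rabbit as a random effect in limma-voom (2.91, adjusted p = 0.13). The B cell markers MS4A1 and CD79B had 36 and 17 read pairs in all 25 libraries.

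Of 14 chemokine genes and receptors 3 rose in the mitral valve and none had an interaction by edgeR over all libraries. CXCL10 was called at 3.38, but not without mitral CHT L229 (1.70), nor with only CHT and Ctrl libraries in the model (3.37, edgeR adjusted p = 0.0738), nor without the 3 mitral Ctrl libraries (2.86, adjusted p = 0.286), nor with the rabbit as a random effect in limma-voom (3.15, adjusted p = 0.0882). On plate 1 alone its interaction was called (5.37, edgeR adjusted p = 0.0425). CCR1, a receptor for inflammatory chemokines, was called at 3.54, and its interaction was called with the rabbit as a random effect (3.51, adjusted p = 0.0499 by limma-voom). CCL2, the chief chemokine for monocytes, was at 1.03 ± 0.44 and 0.79 ± 0.42 with no call in either valve, but its mitral value was 1.70 and called on plate 1 alone (edgeR adjusted p = 0.0215). Of 14 cytokines and their receptors 5 rose in the mitral valve, including IL1RN, the interleukin-1 receptor antagonist (2.61, and 0.97 in the tricuspid valve), and IL7R (2.32 and −0.14). IL10RA, a chain of the interleukin-10 receptor, had responses of 1.51 and −0.32, and its interaction of 1.83 was lost without any 1 of 7 libraries (1.26 to 1.78), on plate 1 alone (1.35, edgeR adjusted p = 0.0928) and with the rabbit as a random effect in limma-voom (1.44, adjusted p = 0.0566). Of 12 interferon response genes 5 rose in the mitral valve and none had an interaction (medians 1.31 and 0.59). OASL, an interferon-induced protein, had responses of 4.75 and 1.78, and its difference of 2.98 missed the threshold (edgeR adjusted p = 0.061) but passed it with the rabbit as a block (2.89, adjusted p = 0.0499), on plate 1 alone (4.10, adjusted p = 0.0351) and with DESeq2 (3.01, adjusted p = 0.0167).

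**Figure D4:**
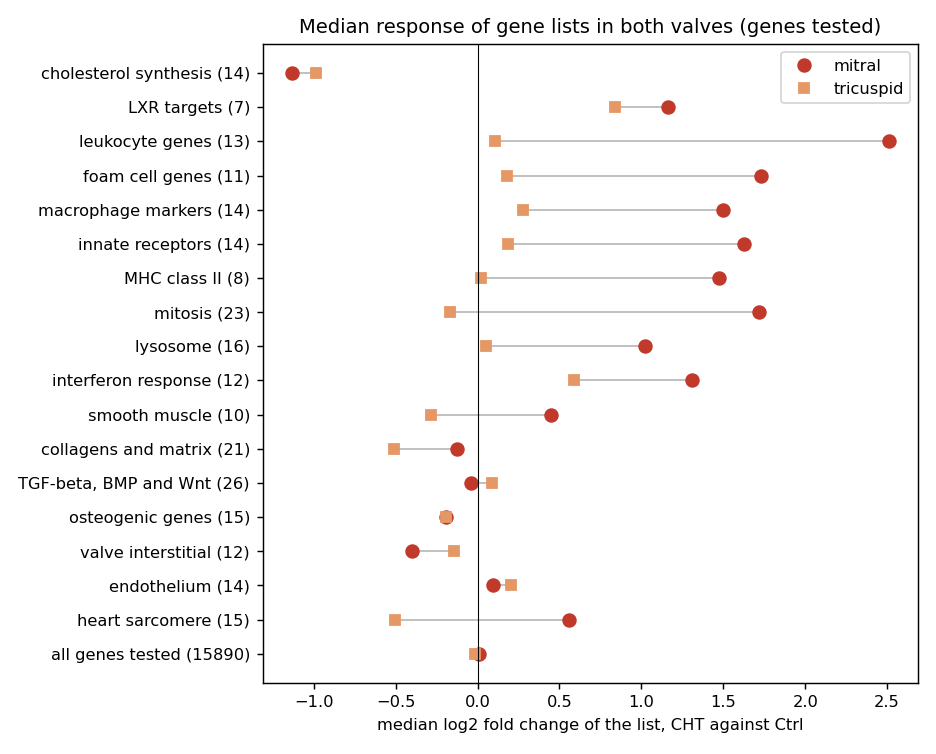
Median log2 fold change of CHT against Ctrl over the tested genes of each list (x axis; number of genes in brackets), with a circle for the mitral and a square for the tricuspid valve. Cholesterol synthesis and LXR targets lie on the same side of 0 in both valves (−1.13 and −0.99, 1.16 and 0.84), while leukocyte genes, mitosis and lysosome are above 1 in the mitral valve and between −0.17 and 0.11 in the tricuspid valve.

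Genes of cell division rose in the mitral valve as well, but most of the calls were lost without 3 of the mitral Ctrl libraries. Of 23 mitosis genes 20 rose in the mitral and none in the tricuspid valve, and 8 had an interaction (medians 1.72 and −0.17), so for most of the 20 the responses were not shown to differ between the valves. Their summed level was 48.37, 79.63 and 117.9 CPM in mitral Ctrl and 102.4, 222.3 and 278.1 CPM in mitral CHT, so the groups overlapped through 1 CHT library. The tricuspid sum was 48.78, 72.44 and 93.92 CPM in Ctrl and 57.95, 67.42 and 79.36 CPM in CHT. Without the 3 mitral Ctrl libraries low in endothelial genes 2 of the 23 rose, 1 had an interaction and the mitral median was 1.26. The sums of the mitral Ctrl libraries that remained were 117.9 (L183), 92.13 (L241) and 94.77 CPM (L278). Fewer Ctrl libraries make calls harder to reach, and the part of this in the lost calls was not tested. The interaction count was 4 without mitral CHT L266, 5 without mitral CHT L157, mitral Ctrl L156 or tricuspid CHT L247, and 13 without mitral CHT L245, mitral Ctrl L183 or tricuspid Ctrl L201.

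NCAPH, a condensin subunit, was at 9.81, 13.1 and 20.4 CPM in mitral Ctrl and at 22.7, 38.1 and 59.8 CPM in mitral CHT, and at 6.88, 10.5 and 14.7 CPM in tricuspid Ctrl and 9.17, 12.2 and 13.8 CPM in tricuspid CHT. Its interaction of 1.33 (95% interval 0.61 to 2.06, edgeR adjusted p = 0.0309) was lost without any 1 of 6 libraries (1.18 to 1.29). KIF11, a spindle motor, and CDCA8, a subunit of the chromosomal passenger complex, had mitral responses of 1.76 and 2.23 and tricuspid values of −0.40 and −0.79. On plate 1 alone neither interaction was called (edgeR adjusted p = 0.0685 for CDCA8 and 0.0858 for KIF11). TOP2A, topoisomerase II alpha, was called in the mitral valve at 1.20 with no interaction (difference 1.03, adjusted p = 0.288), and not without the 3 mitral Ctrl libraries (0.75, adjusted p = 0.425). Of 15 DNA replication genes 3 rose in the mitral valve, all 3 with an interaction, among them RRM2, ribonucleotide reductase (1.99 and −0.19). None of these 3 interactions was called without mitral CHT L157 or without mitral Ctrl L199.

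Smooth muscle genes moved unevenly. Of 10 tested 3 rose in the mitral valve, none was called in the tricuspid valve and 2 had an interaction. MYH11 was at 23.8, 37.3 and 55.1 CPM in mitral Ctrl and at 137, 322 and 813 CPM in mitral CHT. On the right side MYH11 was at 44.6, 51.8 and 95.7 CPM in Ctrl and at 21.5, 29.0 and 42.2 CPM in CHT. All mitral CHT libraries were thus above and all tricuspid CHT libraries below their Ctrl libraries, although the tricuspid fall of 0.97 on the log2 scale was not called (edgeR adjusted p = 0.439). The difference of the responses was 4.32 (95% interval 3.13 to 5.52, adjusted p = 5.78e-06). ACTG2, an enteric smooth muscle actin, had responses of 3.04 and −0.35. ACTA2, the smooth muscle actin of activated fibroblasts, was at 35.0, 78.2 and 106 CPM in mitral Ctrl and at 145, 258.2 and 332 CPM in CHT, with no interaction call (1.48, adjusted p = 0.22). It was at 21.5, 27.6 and 120 CPM in tricuspid Ctrl and 38.2, 48.0 and 66.5 CPM in tricuspid CHT. Its mitral value was 1.71 without the 3 mitral Ctrl libraries and not called (adjusted p = 0.106). Actin genes are nearly identical in coding sequence, so reads may have been divided among them.

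None of 21 collagen and matrix genes, 26 genes of the TGF-beta, BMP and Wnt pathways or 14 endothelial genes was called in either valve by edgeR or DESeq2, and 1 of the 26 fell in the mitral valve by limma-voom. With so few genes, that is close to the share over all genes tested. Of the 21 collagen and matrix genes 4 in the mitral and 10 in the tricuspid valve had an unadjusted p under 0.05, against 15.2% and 10.5% of all genes, with median log2 fold changes of −0.13 and −0.51. Of the 26 pathway genes 4 and 5 had one, and of the endothelial genes 1 and 0. COL1A1, a chain of type I collagen, was at 532, 1352 and 3612 CPM in mitral Ctrl and 1049, 1669 and 5946 CPM in mitral CHT, and at 366, 486 and 8156 CPM in tricuspid Ctrl and 180, 365 and 706 CPM in tricuspid CHT. The highest tricuspid Ctrl value was that of L168. The spread within groups was wide (SE 0.70 and 0.71), so moderate changes of COL1A1 were not detectable. Of 12 valve interstitial markers 1 fell in the mitral valve, TBX20, a transcription factor of valve development, by 0.78 on the log2 scale with no interaction (tricuspid value −0.43).

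Of 12 matricellular genes 2 rose in the mitral valve, SPP1 as above and CCN3, whose call was lost without any 1 of 6 libraries (0.72 to 0.80). TNC, tenascin C, was not called (0.36 ± 0.32 and 0.17 ± 0.31). Of 15 osteogenic genes SPP1 alone was called, in the mitral valve. With so few genes, that is close to the share over all genes tested (4.75% rose and 0.541% fell there). RUNX2, the master regulator of bone formation, was at 0.76 ± 0.44 and −0.37 ± 0.45 with levels of at most 2.0 CPM. CD44, a receptor for hyaluronan and osteopontin, rose by 1.07 in the mitral valve and was at 0.36 in the tricuspid valve. Its difference of 0.71 was not called (edgeR adjusted p = 0.0746), but was with the rabbit as a block (adjusted p = 0.0198), with only CHT and Ctrl libraries (0.73, adjusted p = 0.0385), with DESeq2 (0.75, adjusted p = 0.0368) and with the rabbit as a random effect in limma-voom (0.70, adjusted p = 0.0254).

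None of 15 heart sarcomere genes was called in either valve, with medians of 0.56 in the mitral and −0.51 in the tricuspid valve. TNNC1, cardiac troponin C, was at 12.1 to 92.8 CPM in mitral Ctrl and 6.23 to 144 CPM in mitral CHT, and at 52.9 to 1320 CPM in tricuspid Ctrl and 88.7 to 1010 CPM in tricuspid CHT. With the summed heart sarcomere level as a covariate the interaction was called for 353 genes. Of 4 mesothelial and epithelial markers 1, EPCAM, rose in the mitral valve (2.74, at most 8.75 CPM). Its interaction of 4.15 was not called with the rabbit as a block (3.67, edgeR adjusted p = 0.0827). SLC46A1, a transporter of folate and haem, was at 0.971, 2.20 and 3.43 CPM in mitral Ctrl and 4.87, 7.79 and 19.5 CPM in mitral CHT, and at 0.675, 0.994 and 4.55 CPM in tricuspid Ctrl and 0.546, 1.23 and 2.08 CPM in tricuspid CHT. The difference of its responses was 2.66 (95% interval 1.48 to 3.83, edgeR adjusted p = 0.00424), and it was not called without the 3 mitral Ctrl libraries (2.53, adjusted p = 0.0553) or on plate 1 alone (2.09, adjusted p = 0.0902).

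**Figure D5:**
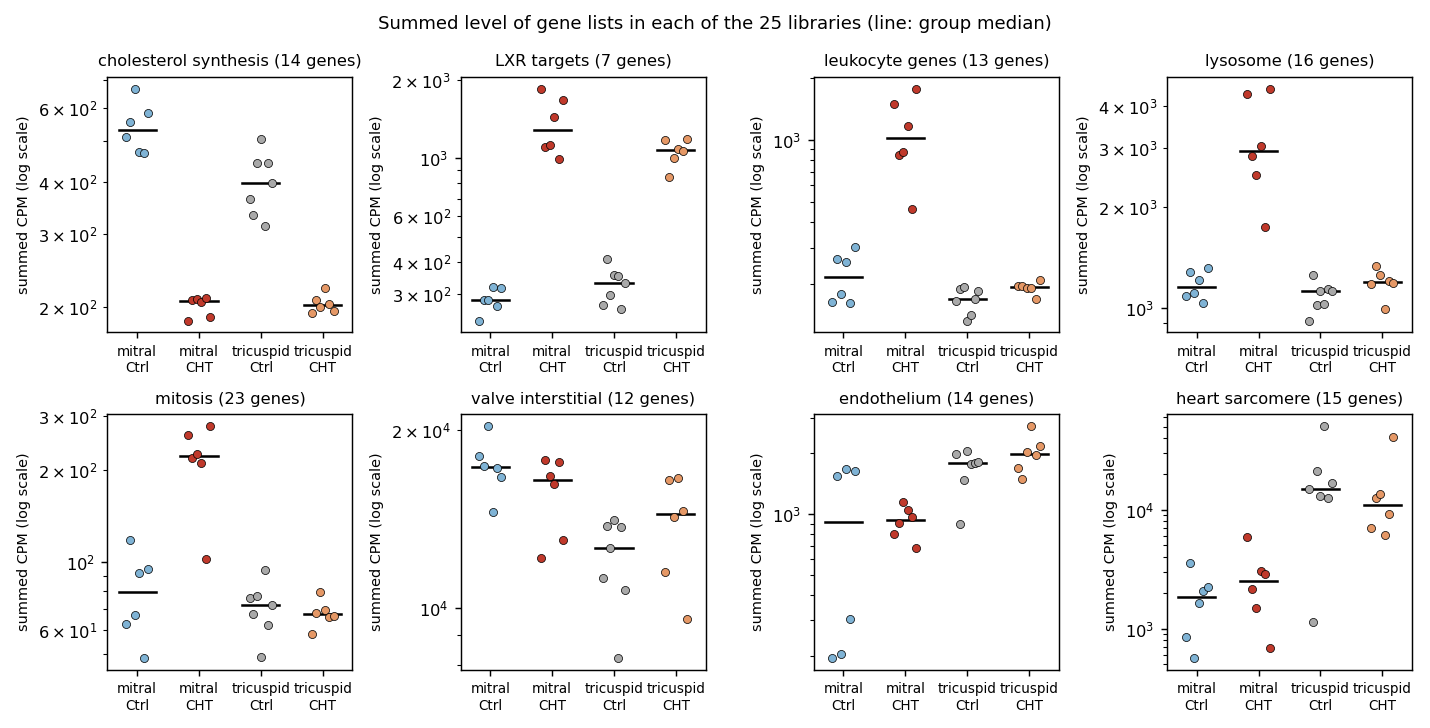
Summed CPM of 8 gene lists in each of the 25 libraries on log axes, by valve and diet, with a line at the group median. Cholesterol synthesis and LXR targets separated by diet in both valves, and leukocyte and lysosome genes in the mitral valve only. The endothelial sums of mitral Ctrl fell into 195.1 to 305 CPM and 1539 to 1672 CPM, and the heart sarcomere sums of tricuspid Ctrl ranged from 1131 to 50470 CPM.

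A response on the right only was rare. Of the 38 genes called in the tricuspid valve 16 were not called in the mitral valve, 13 rising and 3 falling, and 2 of the 16 had an interaction. The tricuspid total was 24 without tricuspid CHT L160, 23 without tricuspid Ctrl L243 and 19 without tricuspid CHT L231. RARRES2, which encodes chemerin, a chemoattractant and adipokine, was 1 of the 2. It was at 142, 211 and 265.95 CPM in tricuspid Ctrl and 225, 292 and 538 CPM in tricuspid CHT, and at 195.2, 233.3 and 258.9 CPM in mitral Ctrl and 172.9, 216 and 282 CPM in mitral CHT. The groups overlapped in both valves. Its tricuspid response was 0.65 ± 0.13 (edgeR adjusted p = 0.0122) against −0.08 ± 0.14, with a difference of −0.73 (95% interval −1.11 to −0.34, adjusted p = 0.0275). The tricuspid call was lost without tricuspid Ctrl L243 (0.57) or tricuspid CHT L231 (0.44) and on plate 1 alone (0.58, under 1.5-fold), and the interaction without any 1 of 7 libraries (−0.69 to −0.52).

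The other, ENSOCUG00000012097, has no symbol. It had 51 read pairs over the tricuspid Ctrl libraries (0.435 CPM pooled) and 0 over the tricuspid CHT libraries, which is at least 15-fold lower given a floor of 3 read pairs over the group (0.029 CPM, counting error only). Its tricuspid call was lost without any 1 of 7 libraries and its interaction with the rabbit as a block.

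TIMD4, a phosphatidylserine receptor of resident macrophages, had the largest tricuspid rise among the called genes with a symbol. It was at 0, 0 and 0.493 CPM in tricuspid Ctrl and at 0.507, 4.23 and 6.79 CPM in tricuspid CHT, with 13 read pairs in 3 of 7 Ctrl libraries and 373 in 6 of 6 CHT libraries. In the mitral valve it had 1 read pair over the Ctrl and 5 over the CHT libraries. The tricuspid diet groups did not overlap, and the log2 fold change was 4.98 ± 0.85 (edgeR adjusted p = 0.000507). The difference of the responses, −3.35, had an interval from −8.83 to 2.12 and was not called, while with the rabbit as a random effect in limma-voom it was −4.76 and called (adjusted p = 0.0448). It rests on very few mitral read pairs in either fit.

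MYLIP, an E3 ubiquitin ligase and LXR target, was at 67.9, 92.0 and 144 CPM in tricuspid Ctrl and at 166.8, 177.5 and 208 CPM in tricuspid CHT, and at 89.2, 111 and 134 CPM in mitral Ctrl and 122, 143 and 192.3 CPM in mitral CHT. The tricuspid groups were apart and the mitral ones overlapped. Its responses were 0.88 (edgeR adjusted p = 0.0049) and 0.44 (adjusted p = 0.177), and the difference of −0.44 had an interval from −0.94 to 0.06. Without the 3 tricuspid libraries the tricuspid value was 0.79 and not called (adjusted p = 0.0744). GCLC, the catalytic subunit of glutathione synthesis, was at 14.5, 17.1 and 21.4 CPM in tricuspid Ctrl and 20.1, 31.7 and 43.5 CPM in CHT, and at 14.7, 15.2 and 16.3 CPM in mitral Ctrl and 18.4, 24.0 and 25.4 CPM in CHT. The tricuspid groups of GCLC overlapped and the mitral ones did not, and its mitral response of 0.55 had an adjusted p of 0.0151 by edgeR but was under 1.5-fold.

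SCN1A, a sodium channel subunit, fell by 1.52 on the log2 scale in the tricuspid valve, from 9.39, 15.8 and 23.05 CPM in Ctrl to 3.08, 3.98 and 10.996 CPM in CHT. That call was lost in 5 settings, among them plate 1 alone (−1.45, edgeR adjusted p = 0.0672) and the rabbit as a random effect in limma-voom (−1.59, adjusted p = 0.065), and without any 1 of 5 libraries. The interaction of SCN1A was called with the rabbit as a random effect (1.43, adjusted p = 0.0366) and with DESeq2 (1.41, adjusted p = 0.0493), though not by edgeR. In the mitral valve SCN1A was at 20.5, 26.1 and 30.0 CPM in Ctrl and 18.7, 19.3 and 32.7 CPM in CHT. STK17A, a kinase linked to apoptosis, rose by 0.63 in the tricuspid valve, from 25.6, 31.0 and 35.9 CPM to 41.8, 45.4 and 58.5 CPM, with separate groups. In the mitral valve STK17A was at 40.2, 45.2 and 47.5 CPM in Ctrl and 47.7, 51.8 and 61.7 CPM in CHT, so the groups were separate there too without a call. WWTR1 (the Hippo pathway coactivator TAZ), TBC1D30 (an activator of Rab GTPases), ENC1 (an actin-binding protein) and SGK3 (a kinase) rose by 0.75, 1.07, 0.76 and 0.65 in the tricuspid valve and were at 0.28, 0.30, 0.09 and 0.14 in the mitral valve. With the rabbit as a block the interaction was called for TBC1D30 (−0.98, edgeR adjusted p = 0.031) and for ENC1 (−0.74, adjusted p = 0.0489). The tricuspid calls of these 4 and of STK17A were each lost under 2 to 7 other settings. Of the 14 genes called in the tricuspid valve and neither in the mitral valve nor in the interaction, 3 (TIMD4, MYLIP and GCLC) kept the tricuspid call whichever library was left out.

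Read across the valves, rises and falls differed. Of the 755 genes that rose in the mitral valve 427 (56.6%) had the same sign in the tricuspid valve, with a median tricuspid log2 fold change of 0.06. Of the 86 that fell in the mitral valve 72 (83.7%) had the same sign, with a median of −0.36. Of all genes tested 47.5% had the same sign in both valves. Conversely, 19 of the 20 genes that rose and 17 of the 18 that fell in the tricuspid valve had the same sign in the mitral valve. The valves come from the same rabbits, so these shares are descriptions.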

How the data were processed

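RNA of whole valves was made into libraries with a stranded, ribosome-depleted low-input kit. Per the labels, the authors demultiplexed the reads with bcl2fastq 2.20, mapped them to OryCun 2.0 and deposited raw counts of read pairs per gene. Per the study's methods the counts came from the nf-core rnaseq pipeline with default parameters apart from trimming; no strand setting is named. The deposited counts of 53 mitral and tricuspid libraries under 4 treatments entered 1 model with 8 groups (edgeR 4.0.16, limma 3.58.1, R 4.3.3; TMM normalisation; filterByExpr), which estimates a shared spread, and the 3 contrasts used here were taken from it. Columns of no sample numbered 0. Pairs of libraries within a group differed by a chi-square per degree of freedom of 23.3 or more, so none were counted as 1 sample. The method was tested on simulated data.

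The members, gene lists and tests were chosen with earlier results of these data known. Among genes with a symbol the text names, by rule, the 12 higher and 6 lower genes called in the mitral valve only with the smallest interaction p (none lower existed), the 10 called in both valves and the 8 called in the tricuspid valve only with the smallest p, up to 3 genes a list, and a fixed set of sterol, leukocyte, matrix and muscle genes. Other genes called in both valves or in the tricuspid valve were added. A few genes the rule named are not reported here. Replicates are separate rabbits. The column names give the rabbit, which pairs the valves. Deviations from the group means correlated with a median r of 0.273 over the 12 same-rabbit pairs (range −0.0209 to 0.497, 7 over 0.1) and −0.0265 over 66 other pairs. Within rabbits, the log2 CPM (prior count 2) of the mitral minus the tricuspid library was compared by exact permutation for 105 genes, but these p-values are not given, since the genes were chosen on the same libraries and contrast. Intervals are 95%. Alternatives were DESeq2 1.42.0, its size factors, other filters, other sets of libraries in the model, plate as a covariate or plate 1 alone, the rabbit as a block or random effect, and leaving out each library. No sequences are shown, since no genome of this build was used here.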

Additional observations from a re-analysis of the deposited data

Results flagged for a closer look

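For 354 genes the response to the diet differed between the mitral and the tricuspid valve by the test of the difference itself. Among the genes with values above, that difference (mitral minus tricuspid, log2) was 6.39 for ANO4, 6.98 for NYAP2, 2.43 for GAS2L3, 2.91 for PPM1H, 1.68 for MPP1, 3.55 for MCOLN2, 4.08 for KLHL6, 2.35 for PLAU, 4.32 for MYH11 and 3.39 for ACTG2. For foam cell and lysosomal genes it was 4.71 for GPNMB, 7.77 for MMP12, 2.65 for SPP1, 1.12 for PLIN2, 6.15 for ATP6V0D2, 3.10 for CTSS, 1.52 for CTSK, 1.62 for CTSB, 1.99 for LIPA and 0.80 for NPC2. For leukocyte and macrophage genes it was 4.79 for ITGAL, 2.85 for ITGAM, 2.93 for ITGB2, 2.73 for VAV1, 2.40 for HCLS1, 2.28 for CD68, 2.21 for CD14, 2.59 for TYROBP, 1.78 for FCER1G and 3.98 for CD22. For immune receptors, class II genes and oxidase subunits it was 2.32 for SYK, 1.32 for PYCARD, 3.62 for TLR8, 2.60 for C5AR1, 2.07 for C3AR1, 2.46 for IL7R, 1.83 for IL10RA, 1.85 for HLA-DMA, 1.91 for HLA-DRA, 2.89 for NCF4 and 1.56 for CYBB. For genes of cell division and others it was 1.33 for NCAPH, 2.15 for KIF11, 3.02 for CDCA8, 2.18 for RRM2, 2.66 for SLC46A1 and 4.15 for EPCAM. RARRES2 alone among these had the larger response in the tricuspid valve (−0.73). Of these 48 differences, 27 were called under every setting run and on leaving out each library. Those of MMP12, CD14, HLA-DMA, CD22, NCAPH, SLC46A1, RARRES2, ITGB2, FCER1G, NPC2, PYCARD, C3AR1, NCF4, CYBB, HLA-DRA, IL7R, IL10RA, KIF11, CDCA8, RRM2 and EPCAM were not called under at least 1. Without the 3 mitral Ctrl libraries the mitral response itself was also not called for CDCA8, EPCAM, HLA-DRA, IL7R, IL10RA, KIF11 and RRM2.

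Of 140 sets of libraries (35 genes in 4 groups), 11 held a library far from the others of its group by Dixon's criterion, and chance would mark about 1 in 20. The tricuspid Ctrl library L168 was the one in 5 of the 11, with the lowest INSIG1 (14.7 CPM), LIPA (20.3 CPM) and FDFT1 (34.5 CPM) and the highest ACTA2 (120 CPM) and COL1A1 (8156 CPM) of its group. Its rabbit gave no mitral library and is not in the tests within rabbits. Mitral CHT L245 had the lowest CD14 (22.3 CPM) and SPP1 (175.9 CPM) of its group. The others were ANO4 in mitral Ctrl L262 (lowest, 0.473 CPM), CD14 in tricuspid Ctrl L159 (lowest, 6.07 CPM), CTSK in tricuspid CHT L231 (lowest, 108 CPM) and TIMD4 in mitral Ctrl L278 (highest, 0.0601 CPM). The cause of these values was not tested.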

How the results depend on the processing

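Counts were recomputed under 11 planned settings besides leaving out each of the 25 libraries, and under 3 settings chosen after seeing the data (without the 3 mitral Ctrl libraries low in endothelial genes, without the 3 tricuspid libraries farthest apart in heart muscle genes, and with the heart muscle level as a covariate). The tricuspid count of 38 became 66 with DESeq2, 25 with only CHT and Ctrl libraries and 24 with a model of its own for each valve, and 19 to 44 on leaving out 1 library. Of the interactions, the 340 with the mitral response higher became 528 with DESeq2, 148 without the 3 mitral Ctrl libraries and 220 without the 3 tricuspid libraries. The 14 with the mitral response lower became 38 with DESeq2, 128 with the rabbit as a random effect in limma-voom, 65 on plate 1 alone, 25 with plate as a covariate, 9 with no filter on low counts, 8 with the heart muscle level as a covariate, 7 with only CHT and Ctrl libraries or with all valves and aorta in 1 model, 4 without the 3 tricuspid libraries and 0 without the 3 mitral Ctrl libraries. The total of both directions (354) moved by over 1.5 times with DESeq2, limma-voom (437 higher), only CHT and Ctrl libraries (where 221 of the 354 were called) and without either set of 3 libraries. The pairing by rabbit (replicate block) gave 385 higher and 92 lower, and 3 genes called in the tricuspid valve only in place of 2, and it moved no other count by over 1.5 times. The mitral count of 841 became 360, and that of genes with a response on the left only 136 in place of 323, without the 3 mitral Ctrl libraries. The latter was 206 without the 3 tricuspid libraries. Genes called in both valves numbered 14 on plate 1 alone in place of 22. Genes called in the tricuspid valve only with an interaction numbered 5 with DESeq2, 0 with only CHT and Ctrl libraries, 4 on plate 1 alone, and 1 with a mean CPM filter of 1, with all valves and aorta in 1 model, and without either set of 3 libraries. On leaving out 1 library, the mitral count ran from 636 to 996, the interaction count from 240 to 516 (at most 464 higher, and 1 to 52 lower), both-valve genes from 16 to 23, mitral-only genes from 225 to 445 and tricuspid-only genes from 0 to 4. The cause was not tested. A model of its own for each valve gives no interaction, and the block gives no response of a single valve, so its classes join the unblocked valve calls with the blocked interaction. No named gene with a call changed direction. Of the 22 genes called in both valves 15, and of 55 named genes called in the mitral valve only 41, kept their calls whichever library was left out.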
